A study of Mus musculus with 4 samples.

Results

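The CITED proteins are small transcriptional co-regulators, and 5 genes are described here in mouse Hoxb8 cells: Cited1, Cited2, Cited4, and Crebbp and Ep300, which encode the acetyltransferases CBP and p300 that CITED proteins bind. They are 5 of 52636 gene lines in the count table. The genes were taken by name, and the set was selected on its values in the comparison described here, above all the loss of Cited1 from R882H cells. The difference between groups in these 5 genes is therefore given as a description with no test. Of the 5, 4 had enough counts to enter the fit across all genes, and Cited4 had none.

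RNA came from a mouse line that the labels call Hoxb8 cells, after a homeobox gene used to keep myeloid progenitors growing in culture. The EV group (n = 2 libraries, EV 1 and EV 2) carried an empty vector. The R882H group (n = 2, R882H 1 and R882H 2) expressed DNMT3A R882H, a variant of the de novo DNA methyltransferase DNMT3A that recurs in acute myeloid leukaemia. The labels give the same cell line name, Hoxb8, and the same RNA and library protocol for all 4 samples. They do not say whether both groups came from the same source of cells, and Y-linked transcripts, described below, were at or near 0 in EV libraries and present in R882H libraries. A difference in cell source and the effect of R882H therefore cannot be told apart in any value here, those of Cited1 included. The sources used here do not give the vector's promoter, the selection of the cells or whether a line is 1 clone. The labels do not say that replicates came from separate cultures, so every p-value measures only the spread between these libraries, which may be technical.

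CITED proteins have no DNA-binding domain of their own. A conserved acidic stretch near the C-terminus binds a zinc-binding domain of CBP and p300 that many transcription factors also use, so that a CITED protein can bring the acetyltransferase to one factor and keep it from another. CITED2 competes in this way with the hypoxia-inducible factor HIF1A and is required for the maintenance of haematopoietic stem cells, CITED1 is known as a co-activator with SMAD4 and the oestrogen receptor, and CITED4 binds TFAP2 factors.

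The start regions of the 3 CITED genes are shown first, because DNMT3A acts on cytosines in CpG dinucleotides; methylation itself was not measured. Each line holds 250 bases before to 50 bases after a RefSeq transcription start (build GRCm38.p6, the assembly of mm10), 5′ to 3′ on the gene's own strand, with CpG dinucleotides in capitals. Cited1 has 3 such starts, numbered here from the most upstream, at chrX:102252132-102252431, chrX:102251794-102252093 and chrX:102250727-102251026 on the minus strand. The Cited2 region is chr10:17722978-17723277 and the Cited4 region chr4:120666313-120666612, both on the plus strand.
Cited1 start 1: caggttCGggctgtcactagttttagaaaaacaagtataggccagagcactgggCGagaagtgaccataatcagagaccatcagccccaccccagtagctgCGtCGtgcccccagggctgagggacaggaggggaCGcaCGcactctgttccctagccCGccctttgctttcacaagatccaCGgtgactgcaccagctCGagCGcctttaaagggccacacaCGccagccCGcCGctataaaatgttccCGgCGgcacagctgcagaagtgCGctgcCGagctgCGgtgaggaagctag
Cited1 start 2: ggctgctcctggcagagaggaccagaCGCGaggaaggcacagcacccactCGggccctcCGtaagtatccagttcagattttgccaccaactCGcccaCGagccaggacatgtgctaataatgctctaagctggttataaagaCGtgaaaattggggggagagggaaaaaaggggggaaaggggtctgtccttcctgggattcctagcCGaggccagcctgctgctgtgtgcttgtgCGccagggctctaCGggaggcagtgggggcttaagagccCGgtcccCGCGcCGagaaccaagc
Cited1 start 3: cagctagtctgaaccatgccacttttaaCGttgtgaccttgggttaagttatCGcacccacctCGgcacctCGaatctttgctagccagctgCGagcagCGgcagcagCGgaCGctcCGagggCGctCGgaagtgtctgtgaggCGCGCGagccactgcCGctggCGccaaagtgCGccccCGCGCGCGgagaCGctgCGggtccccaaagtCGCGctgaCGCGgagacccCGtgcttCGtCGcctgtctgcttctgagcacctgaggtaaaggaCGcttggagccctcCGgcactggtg
Cited2: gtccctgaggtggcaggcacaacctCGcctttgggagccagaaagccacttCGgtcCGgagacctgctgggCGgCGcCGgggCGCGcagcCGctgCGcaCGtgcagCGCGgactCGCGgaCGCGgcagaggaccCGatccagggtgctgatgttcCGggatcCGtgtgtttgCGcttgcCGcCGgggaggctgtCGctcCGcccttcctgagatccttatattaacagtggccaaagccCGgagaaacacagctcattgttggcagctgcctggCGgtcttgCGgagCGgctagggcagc
Cited4: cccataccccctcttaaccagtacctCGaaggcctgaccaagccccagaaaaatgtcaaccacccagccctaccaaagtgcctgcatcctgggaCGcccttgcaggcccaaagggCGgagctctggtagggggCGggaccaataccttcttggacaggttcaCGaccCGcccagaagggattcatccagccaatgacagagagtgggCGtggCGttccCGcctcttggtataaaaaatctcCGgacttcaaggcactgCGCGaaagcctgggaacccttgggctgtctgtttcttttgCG

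The 3 Cited1 starts held 18, 14 and 32 CpGs in 300 bases, more than 70.3%, 63.7% and 90.5% of the 32851 promoters in the table. Their ratio of observed to expected CpG was 0.675, 0.530 and 1.02, against a median of 0.384 over all promoters. Cited2 held 29 CpGs (ratio 0.874, more than 87.1% of promoters) and Cited4 held 13 (0.521, more than 62.1%). Cited4, which had no counts (below), and the upstream Cited1 starts thus had fewer CpGs than Cited2, but the downstream Cited1 start had slightly more. Crebbp with 49 and Ep300 with 30 CpGs (more than 99.0% and 88.3% of promoters) lay in CpG-rich sequence as well. The median promoter held 7 CpGs. With 3′ tags, reads cannot be assigned to one of the Cited1 starts.

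**Figure D1:**
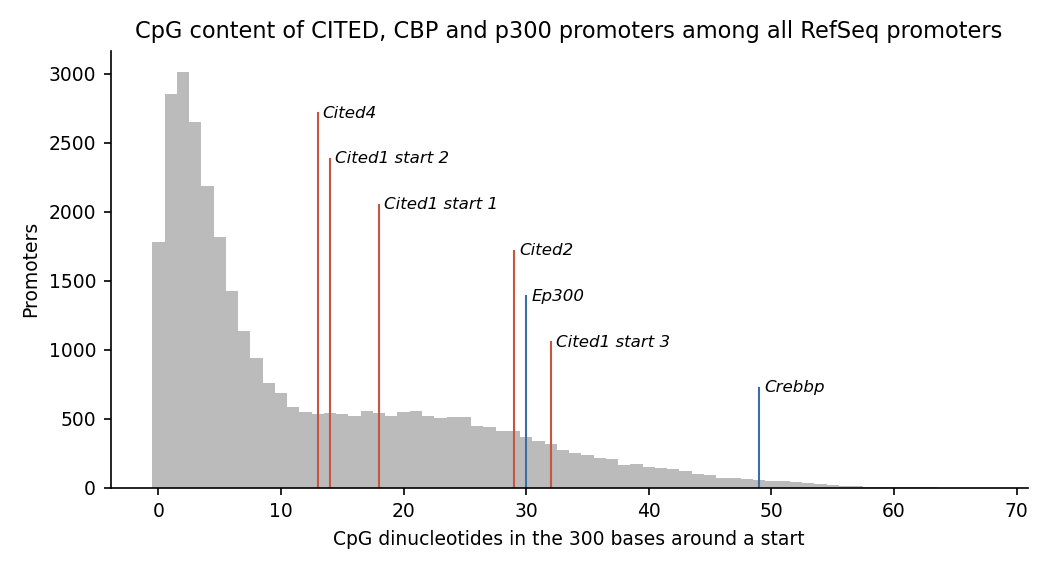
CpG dinucleotides in the 300 bases around each start (x axis) against the number of RefSeq promoters with that count (y axis, grey bars), with vertical lines for the CITED genes in red and Crebbp and Ep300 in blue. Cited4 and the upstream Cited1 starts sit at 13 to 18 CpGs, and Cited2, Ep300 and Cited1 start 3 at 29 to 32; the height of a line has no meaning.

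Short motifs were searched on both strands. ACGTG, the core of the hypoxia response element, occurred in Cited2 as 2 overlapping matches on opposite strands, 153 and 152 bases before the start, and at Cited1 start 2; 19.6% of all promoters of this length hold it. TATAAA occurred at Cited1 starts 1 and 2 and in Cited4 (13.6% of promoters). GCCNNNGGC, a TFAP2 site, occurred at Cited1 start 3 and at 2 places in Crebbp (16.6%). TGACGTCA, the cAMP response element, was in none of the 7 member windows (1.79%).

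Cited1 was one of the most abundant transcripts of EV cells and nearly disappeared in R882H cells. The gene (ENSMUSG00000051159, mm10 chromosome X, 102247381 to 102252181, minus strand) had 9589 and 9803 counts in EV 1 and EV 2, against 23 and 9 counts in R882H 1 and R882H 2. On the CPM scale, counts relative to TMM-scaled library size, these are levels of 1758 and 1730.3 in EV and 3.85 and 1.58 in R882H. The EV libraries lay close together, while those of R882H differed more in proportion, within overlapping 95% counting intervals of 14.6 to 34.5 and 4.12 to 17.1 counts. No library of one group came near the other group.

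The mean level of Cited1 was 1744 ± 19.9 CPM (SD, n = 2) in EV and 2.71 ± 1.60 CPM (SD, n = 2) in R882H. Summed over the libraries of a group, EV held 636 times the normalised counts of R882H, with a 95% counting interval of 451 to 930.5. The fitted log2 fold change, R882H over EV, was −9.30 ± 0.24 (SE). It had rank 4 from the lowest among 11444 tested genes. Within a library, Cited1 ranked 58 and 53 from the top of these genes in EV, and 10112 and 11068 in R882H. In bulk RNA, fewer cells of a type and less RNA per cell cannot be told apart, and this holds for every level here.

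Cited2 (ENSMUSG00000039910, chromosome 10, 17723218 to 17725674) moved the other way and far less. Counts were 118 and 146 in EV and 240 and 164 in R882H, or 21.6 and 25.8 CPM against 40.2 and 28.8 CPM. The groups did not overlap, but the gap between them was smaller than the distance between the R882H libraries. How many of all tested genes separate in this way is not given here, so the lack of overlap alone does not set Cited2 apart. Means were 23.7 ± 2.92 CPM in EV and 34.5 ± 8.04 CPM in R882H (SD, n = 2 each), a log2 fold change of 0.54 ± 0.18. The value moved most with R882H 1: without it the log2 fold change was 0.29, and without R882H replicate 2 it was 0.77. Cited2 stood above 44.0% and 48.0% of tested genes in the EV libraries and above 60.7% and 51.3% in the R882H libraries.

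Cited4 (ENSMUSG00000070803, chromosome 4, 120666572 to 120667820) had 0 counts in each library. A count of 0 allows up to 3 counts, or 0.502 to 0.550 CPM per library, and covers counting error only. Expression of Cited4 below that limit was not detectable at this depth in either group.

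The acetyltransferase genes were lower in R882H by similar factors. Crebbp, encoding CBP (ENSMUSG00000022521, chromosome 16, 4081328 to 4213997), had 360 and 479 counts in EV and 277 and 223 in R882H, levels of 66.0 and 84.5 CPM against 46.3 and 39.1 CPM. Ep300, encoding p300 (ENSMUSG00000055024, chromosome 15, 81585351 to 81652077), had 281 and 338 counts in EV and 195 and 185 in R882H, levels of 51.5 and 59.7 CPM against 32.6 and 32.5 CPM. In both genes each EV library was above each R882H library. The share of all tested genes whose libraries separate in this way is not given here, so the order alone sets neither gene apart. The spread was widest among the EV libraries of Crebbp and smallest among the R882H libraries of Ep300.

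Means of Crebbp were 75.3 ± 13.1 CPM in EV and 42.7 ± 5.09 CPM in R882H (SD, n = 2 each), and its log2 fold change was −0.82 ± 0.15 (1.76-fold lower in R882H). Ep300 averaged 55.6 ± 5.75 CPM among EV libraries against 32.6 ± 0.108 CPM, with a log2 fold change of −0.77 ± 0.15 (1.71-fold lower). Crebbp tags made up 56.2% and 58.6% of the pair's tags in EV and 58.7% and 54.7% in R882H, and the exact 95% binomial intervals of the 4 libraries overlapped (the lowest bound was 49.7% and the highest 63.2%). A difference between groups in the balance of the pair was not detectable beyond that counting error, while the summed level was 131 ± 18.9 CPM in EV against 75.3 ± 5.20 CPM.

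**Figure D2:**
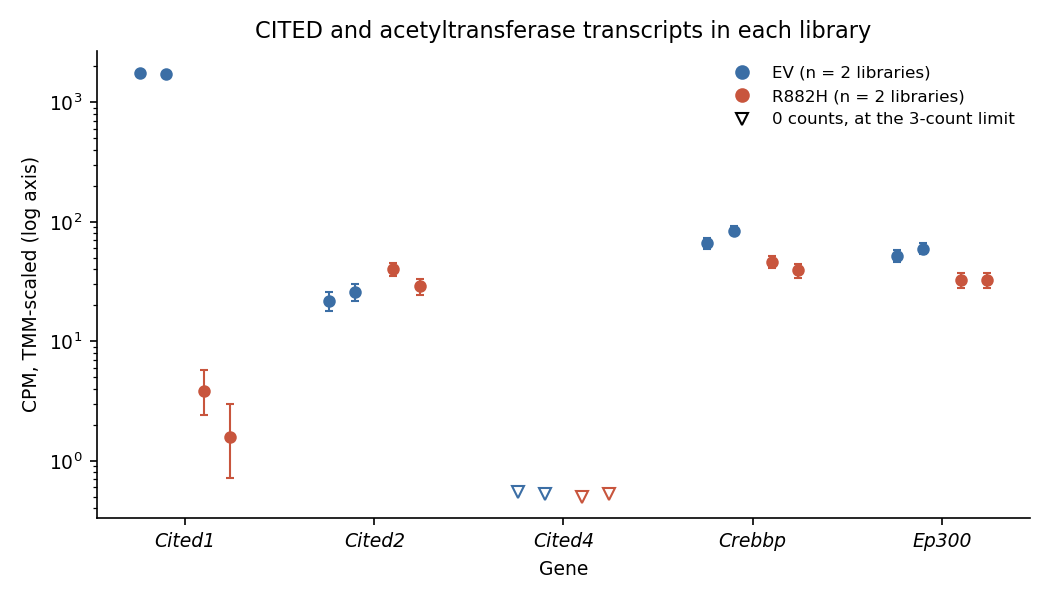
Level of each gene in each library (y axis, TMM-scaled CPM on a log axis), EV in blue and R882H in red, 1 point per library with its exact 95% counting interval; open triangles mark 0 counts, drawn at the limit of 3 counts. Cited1 spans 1.58 to 1758 CPM, and the other detected genes stay between 21.6 and 84.5 CPM.

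Tags from the 3′ end do not grow in number with transcript length, so levels were compared between genes without a length correction. Differences between genes in how well their 3′ ends were captured and counted were not measured. In EV the order of mean levels was Cited1, Crebbp, Ep300, Cited2 and Cited4, and no neighbours in that order overlapped in their libraries. Cited1 was 23.2 times the next gene. In R882H the order was Crebbp, Cited2, Ep300, Cited1 and Cited4. Here Crebbp and Cited2, and Cited2 and Ep300, overlapped in their library ranges and cannot be ordered beyond their spread.

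The family's makeup changed with Cited1. Cited1 gave 98.8% and 98.5% of all CITED tags in the EV libraries, and 8.75% (exact 95% binomial interval 5.62% to 12.8%) and 5.20% (2.41% to 9.65%) in the R882H libraries. In R882H cells the remaining CITED tags were those of Cited2. All CITED tags together went from 1768 ± 17.0 CPM to 37.2 ± 9.64 CPM (SD, n = 2 each). Per tag of Crebbp and Ep300 combined there were 15.1 and 12.2 CITED tags in EV, and 0.557 and 0.424 in R882H. These are transcript ratios and say nothing of protein amounts.

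**Figure D3:**
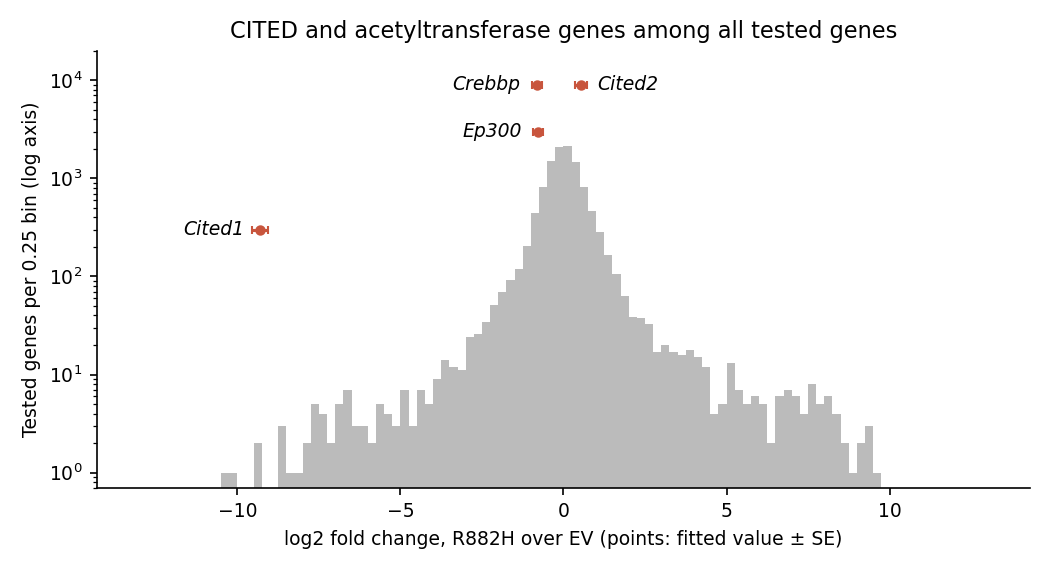
Log2 fold change, R882H over EV (x axis), for all 11444 tested genes as grey bars (y axis, number of genes per bin on a log axis) and for the 4 tested CITED and acetyltransferase genes as red points with SE bars. The height of the points has no meaning. Cited1 at −9.30 lies at the far left of the distribution, and Crebbp (−0.82), Ep300 (−0.77) and Cited2 (0.54) lie within the range that holds 90% of genes.

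Across all genes, 38.8% were called (edgeR adjusted p under 0.05; 2213 higher and 2222 lower in R882H), and every count of called genes below stands beside that share. The words rose and fell are used only of called genes. The central 90% of log2 fold changes, between the percentiles 5 and 95, ran from −1.21 to 1.36 with a median of 0.01. Crebbp, Ep300 and Cited2 were within that range, at ranks 1031, 1139 and 9374 from the lowest, and outside the range of −0.35 to 0.38 between the percentiles 25 and 75.

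No called neighbour of Cited1 on the X chromosome fell. Of the 3 nearest tested genes on each side, 3 rose, 0 fell and 3 were not called, with log2 fold changes from −0.08 to 2.24. Rps4x, a ribosomal protein gene whose start is 62.8 kb away, had 10980, 10713, 15254 and 15064 counts in EV 1, EV 2, R882H 1 and R882H 2, the order of all such counts below (log2 fold change 0.41 ± 0.14), and the histone deacetylase gene Hdac8, 253.2 kb away on the other side, had 6, 14, 40 and 60 counts (2.24 ± 0.39, edgeR adjusted p = 2.06e-05). Pin4, a prolyl isomerase gene, rose by 0.56 ± 0.21. The helicase gene Ercc6l (0.24 ± 0.19), Gm26992 (0.29 ± 0.23) and Tsix (−0.08 ± 0.15) were not called. The starts of Pin4 and Ercc6l lie 132.7 and 95.1 kb from that of Cited1, but those of Gm26992 and Tsix are 1170.0 and 1179 kb away. The Rps4x call ended on leaving out R882H 1 (adjusted p = 0.125), R882H 2 (0.178) and with the replicate number as a block (0.0547). Pin4 lost its call on omitting EV 2 (0.467, log2 fold change 0.21), R882H 2 (0.109) and in DESeq2 (0.24), and had 0.99 without EV replicate 1. Tsix and Gm26992 share exon positions with each other and with Xist.

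The X chromosome as a whole showed no general fall. Of 330 tested X-linked genes, 88 rose and 46 fell (40.6% called), the median log2 fold change was 0.17, and none had a lower value than Cited1. Xist, the RNA that coats the inactive X chromosome, had 1463 and 1438 counts in EV and 1880 and 1509 in R882H, and was not called (0.15 ± 0.13). Y-linked transcripts were higher in R882H: Ddx3y had 0, 2, 65 and 41 counts and Eif2s3y had 1, 0, 26 and 29. The ratios of normalised counts were 50.5 (95% interval 13.6 to 422) and 52.4 (9.02 to 2106). Uty had 0, 0, 12 and 10 counts and Kdm5d 1, 2, 7 and 7, too few to enter the fit. Y-linked RNA thus separated the groups, as Cited1 did, and its part in the loss of Cited1 was not tested.

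Around Cited2, the nearest tested gene on the right, Heca, a homologue of the fly headcase gene, rose by 1.16 ± 0.17 (151, 118, 345 and 288 counts), and the other 5 neighbours were not called: Abracl (−0.09), Gm17711 (−0.13), Vta1 (0.05), Hivep2 (−0.50) and Pex3 (−0.29, called without R882H replicate 1 at adjusted p = 0.0493). The 3 on the right lie 224.8 to 300.1 kb from Cited2, and Vta1, Hivep2 and Pex3 are 3018 to 4170.0 kb away. Exons of Abracl overlap those of Gm17711, and exons of Pex3 those of Adat2. Around Cited4, which had no counts, tested neighbours lay 96.3 to 932.8 kb away. The Polycomb-associated gene Scmh1 had 532, 603, 274 and 317 counts and fell by 1.01 ± 0.14 on the log2 scale, and the CTP synthase gene Ctps had a log2 fold change of −0.42 ± 0.13. Hivep3 (−0.20), Nfyc (0.21), Exo5 (0.43) and Smap2 (−0.02) were not called. The Ctps call ended on leaving out R882H 1 (0.128), R882H 2 (0.107) and in DESeq2 (0.0706). Of the 6 neighbours of Crebbp, 2 rose and 1 fell, and of those of Ep300, 1 rose and 2 fell. Both risers near Crebbp and all called neighbours of Ep300 lost their calls in at least 1 alternative.

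**Figure D4:**
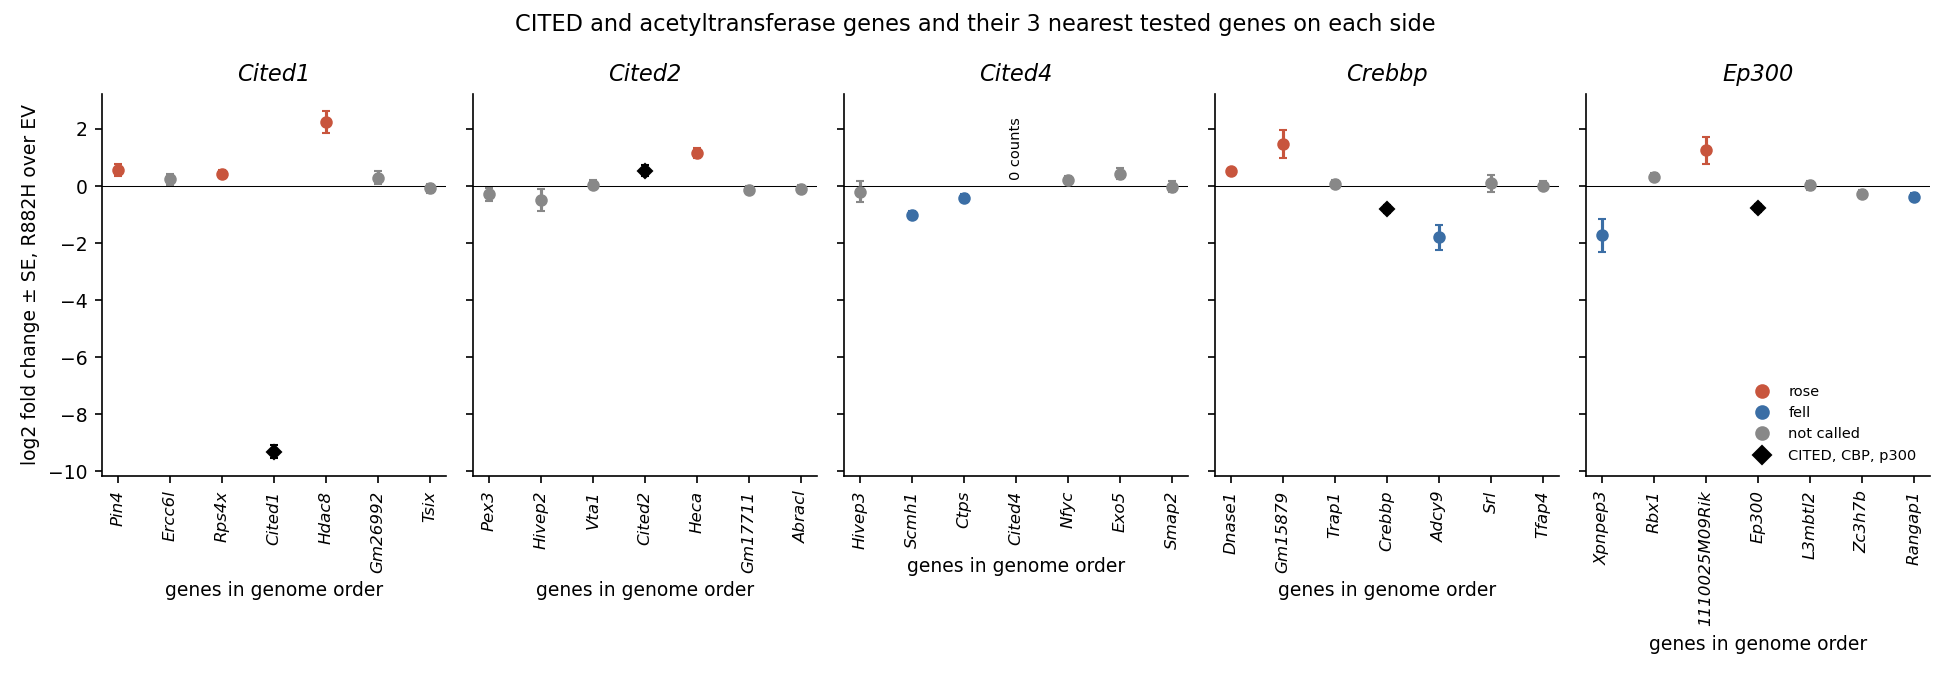
Log2 fold change, R882H over EV, with SE (y axis) for each CITED and acetyltransferase gene (black diamond) and its 3 nearest tested genes on each side, in genome order (x axis); colours give the call of each neighbour. Cited1 at −9.30 lies below neighbours between −0.08 and 2.24, and Cited4 has 0 counts.

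Genes with a profile like that of Cited1 were sought by the Euclidean distance between log2 CPM values centred on each gene's mean, over 4 libraries. The nearest was Serpinb12, a serpin (distance 1.27; 1293, 1336, 5 and 2 counts). It was followed by Add2, an adducin of the membrane skeleton (1.89; 381, 422, 1 and 0 counts), the glypican gene Gpc3 (2.15; 956, 1209, 6 and 5 counts), Mtus2 (3.09; 157, 142, 0 and 0 counts) and the platelet chemokine gene Pf4 (3.12; 5635, 4781, 90 and 60 counts). All 5 are high in both EV libraries and at or near 0 in R882H, or, for Pf4, low there. EV held 843 times the normalised counts of R882H for Add2 (95% interval 151 to 33341), whose exons overlap those of Gm44089, and at least 105-fold more for Mtus2, taking 3 counts over the R882H group. For Cited2 the nearest were Bicral (distance 0.07), Zfp395 (0.07) and Zfp81 (0.09). Zfp395, a zinc finger gene, had 146, 181, 298 and 215 counts, with R882H 1 highest, as for Cited2. With 4 libraries in 2 groups, likeness shows little more than a similar difference between groups.

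Markers of several blood cell types also differed between the groups. The progenitor marker Cd34 had 7026, 7472, 8048 and 7997 counts. A marker is given here as at 0 only if it had no counts in any of the 4 libraries. No gene of the 14 granulocyte-monocyte markers was at 0 in that sense, but Ly6c2 had 0, 0, 6 and 6 counts. Of the 13 tested, 4 rose, 3 fell and 6 were not called. Their summed level was 3145 to 3275 CPM in EV and 5062 to 5093 CPM in R882H, and the gene with the greatest difference was Mpo, encoding myeloperoxidase, with 166, 198, 7250 and 7237 counts. Cebpa, Csf2ra and Ms4a3 fell. Summed megakaryocyte markers (9 genes, none at 0) were at 876 to 1063 CPM in EV and 23.7 to 28.9 CPM in R882H. Of that sum, Pf4 alone gave 1033 and 844 CPM in the EV libraries. Of the 4 tested genes, Pf4 and Ppbp fell, Itga2b rose (1.35 ± 0.38), Gp9 was not called (0.41 ± 0.35), and the other 5 had too few counts. Erythroid markers (11 genes, 5 at 0, among them Slc4a1) were at 496 to 498 CPM and 135 to 162 CPM, of which Car2 gave most. Of the 3 tested erythroid genes, 1 fell and 2 were not called. B-lineage markers (11, none at 0) were at 579 to 594 CPM and 1821 to 1822 CPM, and of the 9 tested 8 rose and 0 fell. Mast cell and basophil markers (10, 4 at 0, among them Fcer1a) were at 99.9 to 102 CPM and 416 to 433 CPM; of the 5 tested, 4 rose, led in level by Cpa3 (21.3, 23.7, 288 and 312 CPM), and Gata2 fell (−0.86 ± 0.17). T-lineage markers (9, 5 at 0, among them Cd3e) were at 6.79 to 8.30 CPM in EV and 1.51 to 1.76 CPM in R882H, and the only one tested, Lck, fell (36, 47, 7 and 5 counts). Macrophage and dendritic markers (10, 5 at 0, among them C1qa) were at 30.3 to 32.3 CPM and 37.0 to 40.3 CPM, with Cd68 risen and Adgre1 fallen. Of the 8 stromal markers 6 were at 0 and Thy1 gave nearly all of 617 to 707 CPM in EV and 9.13 to 12.0 CPM in R882H. The part of these differences in the change of Cited1, Crebbp or Ep300 was not tested.

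TFAP2 factors, DNA-binding partners of CITED proteins, were at or near 0. Of 5 genes, 4 had no counts and Tfap2a had 2, 1, 1 and 6, so none was tested. Among 6 tested SMAD genes, 1 rose and 0 fell (16.7% called, median log2 fold change −0.01). The riser was Smad3, a TGF-beta signal transducer, with 52, 52, 132 and 128 counts (1.25 ± 0.21, edgeR adjusted p = 8.71e-06). Smad5, of the BMP branch, had 578, 596, 597 and 546 counts and was not called (−0.11 ± 0.13). Smad9 had no counts.

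Among transcription factors that bind CBP or p300, as many rose as fell. Of 53 genes, 44 were tested, 11 rose, 11 fell and 22 were not called (50.0% called, median −0.08). Together with Smad3, the cAMP-responsive factor gene Crem (16, 9, 55 and 49 counts; 1.97 ± 0.35) and the interferon regulatory factor gene Irf1 (419, 463, 705 and 797; 0.70 ± 0.13) rose. The cytokine-signalling factor genes Stat3 (2031, 2387, 965 and 867; −1.34 ± 0.13) and Stat5a (342, 438, 230 and 155; −1.09 ± 0.16) fell, as did the myeloid factor gene Cebpa (526, 665, 367 and 378; −0.74 ± 0.14). The stress-response factor Atf4 was not called (−0.13 ± 0.14). Stat3 and Stat5a are neighbours on opposite strands whose exons overlap. Their reads in the shared stretch can be told apart only if counting used the strand, which the sources used here do not give.

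Hif1a, the factor that competes with CITED2 for CBP and p300, fell. It had 346 and 360 counts in EV and 238 and 193 in R882H, or 63.5 ± 0.0652 CPM against 36.9 ± 4.20 CPM (log2 fold change −0.78 ± 0.15, edgeR adjusted p = 5.35e-05). Its relative Epas1 had 1, 1, 1 and 0 counts. Of 12 tested HIF pathway regulators, 2 rose, 4 fell and 6 were not called (50.0% called, median −0.21). The prolyl hydroxylase genes, whose products mark HIF for degradation, split: Egln3 (0.65 ± 0.13) and Egln1 (0.38 ± 0.13) rose and Egln2 (−0.78 ± 0.14) fell. Hif1an, whose product blocks the binding of HIF to CBP and p300, fell by 0.62 ± 0.19 on the log2 scale, and the ubiquitin ligase gene Rbx1 was not called (0.33 ± 0.14; called without EV replicate 1, adjusted p = 0.0046). The Egln1 call ended on leaving out EV 1 (0.0587), R882H 1 (0.146), R882H 2 (0.098) and in DESeq2 (0.108). Hif1an lost its call on omitting EV 2 (0.212, log2 fold change −0.38), R882H 1 (0.127) and in DESeq2 (0.123). Exons of Egln2 overlap those of Cyp2t4.

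HIF target genes moved in both directions. Of 38 tested, 13 rose, 11 fell and 14 were not called (63.2% called, median 0.02). Stc2, which encodes stanniocalcin, had 1, 0, 45 and 38 counts, a ratio of R882H over EV of 79.1 (95% interval 13.8 to 3159.6). Ankrd37 (18, 10, 96 and 99 counts; 2.72 ± 0.30) and the histone demethylase gene Kdm3a (1.10 ± 0.18) rose. The oxidoreductase gene Ero1l (3780, 3751, 1408 and 1188 counts; −1.61 ± 0.14), the hexokinase gene Hk2 (−1.26 ± 0.14) and the lysyl hydroxylase gene Plod2 (−1.32 ± 0.15) fell. The glycolytic gene Pgam1 was not called (−0.02 ± 0.14). Exons of Ankrd37 overlap those of Ufsp2, and exons of Plod2 those of Gm38391.

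Other lysine acetyltransferase genes divided evenly: of 19 tested, 3 rose, 3 fell and 13 were not called (31.6% called, median −0.05). Kat2a, the catalytic subunit of SAGA-type complexes, fell (141, 222, 112 and 119 counts; −0.72 ± 0.19), as did the nuclear receptor co-activator genes Ncoa1 (−0.75 ± 0.22) and Ncoa3 (−0.60 ± 0.20). Atat1, which acetylates tubulin (0.87 ± 0.24), the histone H4 acetyltransferase gene Kat8 (0.52 ± 0.18) and Clock, of the circadian oscillator (1.25 ± 0.42), rose. Taf1, of the general factor TFIID, was not called (0.11 ± 0.13). All 6 calls ended in at least 1 alternative. Without EV replicate 2 the calls of Kat2a (0.149, log2 fold change −0.39), Ncoa3 (0.213) and Clock (0.138) ended. Without EV replicate 1 those of Ncoa1 (0.0943) and Kat8 (0.0903) did. Without R882H replicate 1 those of Atat1 (0.0678), Kat8 (0.0516) and Clock (0.206) did, and Ncoa3 moved to −0.99. Without R882H replicate 2 those of Ncoa1 (0.184, log2 fold change −0.46), Ncoa3 (0.423, −0.28) and Kat8 (0.111) did. DESeq2 kept the Kat2a call only. Exons of Atat1, Kat8, Ncoa1 and Ncoa3 overlap those of Gm16279, Prss8, 4921501I09Rik and Sulf2.

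Lysine deacetylase genes, whose products remove acetyl groups, were called at a share near that of all genes. Of 17 tested, 4 rose, 3 fell and 10 were not called (41.2% called, median 0.24). Besides Hdac8, the mitochondrial sirtuin gene Sirt3 (228, 181, 442 and 381 counts; 0.93 ± 0.15) and the nucleolar Sirt7 (0.70 ± 0.13) rose. Class IIa genes Hdac9 (−1.02 ± 0.18) and Hdac4 (−0.93 ± 0.22) fell, as did Hdac1 (−0.65 ± 0.20). Hdac2, by contrast, rose (605, 715, 1080 and 1082 counts, log2 fold change 0.64 ± 0.13). Hdac7 was not called (0.29 ± 0.13). The Hdac1 call ended on leaving out EV 1 (0.179, log2 fold change −0.41), R882H 2 (0.124) and in DESeq2 (0.124). Exons of Sirt3 overlap those of Psmd13 and Ric8a, exons of Sirt7 those of Mafg, and exons of Hdac7 those of Slc48a1.

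Creb1, encoding the factor for which CBP is named, had 534, 610, 626 and 603 counts and was not called (0.03 ± 0.13). Of 18 tested CREB regulators, 6 rose, 4 fell and 8 were not called (55.6% called, median −0.03). Besides Crem, Crebrf (34, 39, 94 and 87 counts; 1.24 ± 0.24), an endoplasmic reticulum stress regulator, and the protein kinase A catalytic gene Prkacb (0.57 ± 0.14) rose. The protein kinase A regulatory gene Prkar2a (477, 552, 224 and 234; −1.24 ± 0.14), the adenylyl cyclase gene Adcy9 (−1.80 ± 0.43) and the catalytic gene Prkaca (−0.41 ± 0.15) fell. Prkaca lost its call on omitting EV 2 (0.279, log2 fold change −0.23), R882H 1 (0.238), R882H 2 (0.0673) and in DESeq2 (0.145). Adcy9 is also the nearest tested gene to Crebbp at higher coordinates, 206.5 kb from its start.

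Of 16 tested CREB target genes, 4 rose, 3 fell and 9 were not called (43.8% called, median −0.12). The G-protein regulator gene Rgs2 (777, 652, 1647 and 1669 counts; 1.14 ± 0.14) and the immediate early gene Fos (3, 4, 33 and 14; 2.63 ± 0.57) rose. The insulin receptor substrate gene Irs2 (136, 183, 40 and 22; −2.43 ± 0.24), the phosphodiesterase gene Pde4a (−0.49 ± 0.16) and the immediate early gene Egr1 (−0.76 ± 0.30) fell, and Junb was not called (−0.30 ± 0.13). The Fos call ended on leaving out R882H 1 (0.0942). Pde4a lost its call on omitting EV 2 (0.134), R882H 1 (0.0643), R882H 2 (0.134) and in DESeq2 (0.105). Egr1 lost it on omitting EV 2 (0.246), R882H 2 (0.392, log2 fold change −0.44) and in DESeq2 (0.257), and had −1.16 without R882H replicate 1. Exons of Junb overlap those of Prdx2.

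Among 12 tested regulators linked to CITED2 in stem cells, 4 rose, 3 fell and 5 were not called (58.3% called, median −0.13). Cdkn2a, a cell cycle inhibitor locus, had 0, 2, 69 and 64 counts, a ratio of R882H over EV of 63.3 (95% interval 17.2 to 528). The cell cycle inhibitor gene Cdkn1a had 75, 115, 486 and 562 counts (2.40 ± 0.17, edgeR adjusted p = 8.08e-14). The repressor gene Gfi1 (−0.96 ± 0.14), the stem cell factor gene Gata2 (−0.86 ± 0.17) and the kinase gene Akt1 (−0.66 ± 0.14) fell. Spi1, which encodes the myeloid factor PU.1, was not called (−0.27 ± 0.14; called without EV replicate 1, adjusted p = 0.0157). Exons of Gfi1 overlap those of A430072P03Rik. Without EV replicate 2 the fitted log2 fold change of Cdkn2a was 9.02, since the remaining EV library held 0 counts.

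Other interactors and readers of acetylated chromatin were called at a share near that of all genes. Of 29 tested, 5 rose, 6 fell and 18 were not called (37.9% called, median −0.18). The cell cycle factor gene Mybl2 (−0.96 ± 0.14) and the histone methyltransferase gene Kmt2a (276, 333, 179 and 126 counts; −1.07 ± 0.17) fell. The helicase gene Ddx17 (0.55 ± 0.13) and the bromodomain genes Brd8 (0.51 ± 0.13) and Brd7 (0.44 ± 0.13) rose, and Ddx5 was not called (0.08 ± 0.14). Calls ended without R882H replicate 1 for Ddx17 (0.0966) and Brd8 (0.0599), and without R882H replicate 2 for Brd7 (0.0871). Exons of Ddx17 overlap those of Kdelr3, and exons of Kmt2a those of AC061963.1.

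**Figure D5:**
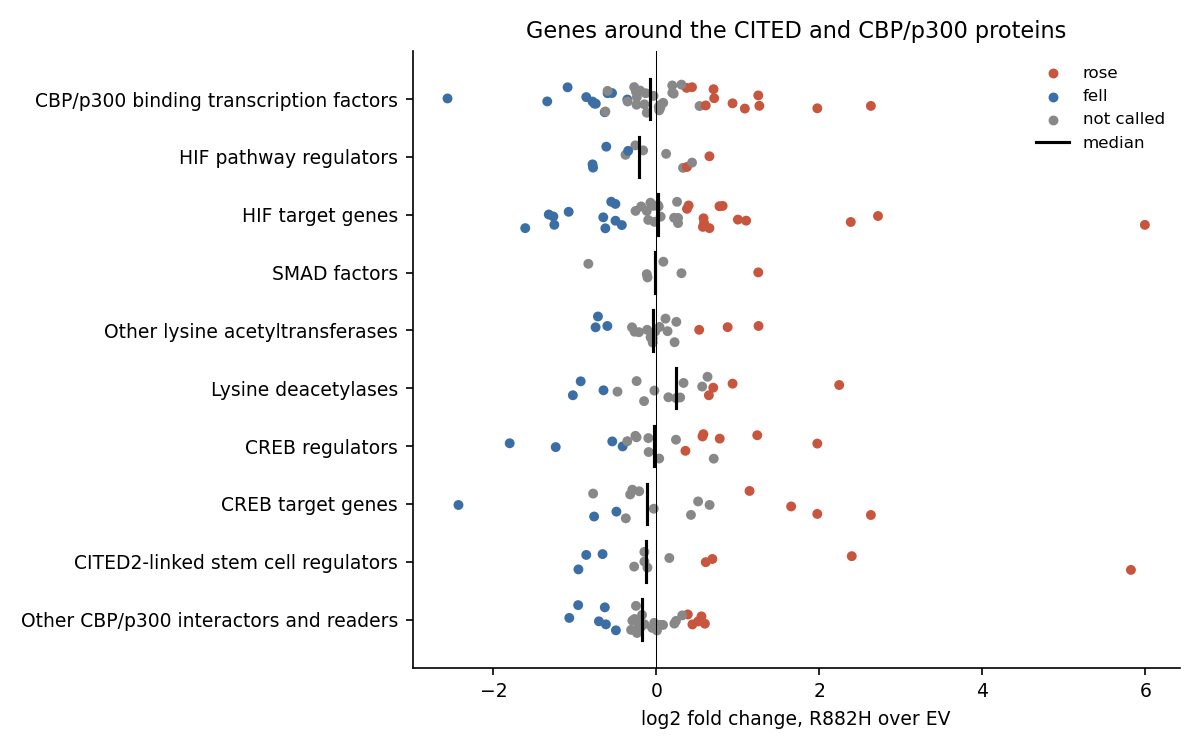
Log2 fold change, R882H over EV (x axis), of each tested gene in 10 lists of partners, opposing enzymes and targets (1 line each), coloured by call, with the list median as a black bar; vertical scatter within a line has no meaning. Genes of most lists fall on both sides of 0, and list medians lie between −0.21 and 0.24.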

How the data were processed

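RNA of 4 Hoxb8 libraries was profiled with a QuantSeq 3′ kit, per the labels' protocols. The authors deposited raw counts of each library by Ensembl gene. The submitters' processing notes name HISAT2 2.0.4, mm10, Subread 2.0.0 with featureCounts, limma 3.48.3, edgeR 3.34.0, bcl2fastq 2.17.1.14 and cutadapt 1.14, without their roles; the sources used here do not give the annotation or strand setting. Libraries held 5470330 to 5921985 counts. Replicates differed by more than sampling noise (chi-square per degree of freedom 5.27 in EV and 3.62 in R882H).

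Of 52636 gene lines, 52489 were matched to a symbol and a GENCODE M21 position; 0.0839% of counts lay on the others. Starts are RefSeq's in the promoter table (GRCm38.p6), where all 5 genes were matched. Protein sequences were not analysed here. Exon overlaps with genes of at least 10 counts, on either strand, were found with bedtools 2.31.1. Reads there cannot be told apart on the same strand, nor on opposite strands if counting ignored the strand.

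Differential expression was tested across 11444 genes with edgeR 4.0.16 in R 4.3.3 (filterByExpr, TMM, robust glmQLFit, glmQLFTest) and Benjamini-Hochberg adjustment at 0.05. Standard errors (SE) are the size of the log2 fold change divided by the root of F. The test was also run on simulated counts for this comparison with 11444 genes. Of 50 genes changed at each fold, it recovered 40% at 1.5-fold, 80% at 2-fold and 100% at 4-fold and 8-fold. Of 172 calls, 12 were false. The simulation gave every gene the same dispersion and changed far fewer genes than were called in the data. Its rates may therefore not hold for the data. Log2 CPM for the distance used a prior count of 2. Intervals are exact 95% intervals for counting error. DESeq2 1.42.0, other scalings and filters, leaving out each library and a replicate block were alternatives.

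The 5 genes, the lists and the tests were chosen with earlier results of these data known. Named genes are, per list, up to 3 risers and 3 fallers with the smallest adjusted p and the not-called gene with the most counts, the 3 nearest tested genes on each side of each CITED gene, the nearest profiles (Gm and Rik symbols left out) and the sex-linked genes. Up to 2 genes of each marker list with the most counts were eligible, and only some are named. Genes named beyond this, such as Epas1, Smad9, Tfap2a, Hdac2, Mpo, Csf2ra, Ms4a3, Itga2b, Gp9 and markers at 0, were chosen after their values were seen. Some genes that the rule names are not reported here.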

Additional observations from a re-analysis of the deposited data

How the results depend on the processing

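Under all 11 alternatives the log2 fold change kept its direction for Cited1 (−10.08 to −8.80), Cited2 (0.29 to 0.77), Crebbp (−0.99 to −0.63) and Ep300 (−0.88 to −0.67). DESeq2 called 1300 genes higher and 1416 lower, and left called 3 HIF regulators, 1 other acetyltransferase, 6 CREB regulators and 4 CREB targets. Leaving out 1 library gave 1446 (without R882H replicate 1) to 2168 genes lower, 3 to 6 HIF regulators (3 without R882H replicate 1), 1 to 2 SMAD genes (2 without R882H replicate 2), 3 to 4 acetyltransferases (3 without EV replicate 2 and without either R882H replicate), 6 to 8 CREB regulators (6 without R882H replicate 2) and 6 to 11 other interactors (6 without R882H replicate 1). The cause was not tested. With the replicate number as a block, 2196 genes were higher and 2229 lower and Cited1 had −9.31. Deviations of same-numbered libraries correlated at −0.003 across genes, so they showed little shared shift. That correlation cannot show whether same-numbered libraries were prepared together. Leaving aside Ms4a3, 20 of 101 named genes lost a call, 5 gained one and 11 that were not called turned sign when 1 library was left out. Their ranges were Abracl −0.23 to 0.053, Atf4 −0.30 to 0.043, Creb1 −0.037 to 0.10, Ddx5 −0.043 to 0.22, Gm17711 −0.27 to 0.0091, Gm26992 −0.047 to 0.57, Pex3 −0.76 to 0.075, Pgam1 −0.070 to 0.048, Smap2 −0.087 to 0.036, Tsix −0.42 to 0.21 and Vta1 −0.013 to 0.11. Depth limits Cited4, which had no counts, and Cited1 in R882H, with 9 to 23 counts.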
